A study of Mus musculus with 6 samples.

Results

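The genes examined here encode the insulin-like growth factors (IGFs), their receptors and the IGF binding proteins. The members were taken by name from a list of 10 genes, and all 10 were among the 25239 gene symbols of the count tables. They are the ligands Igf1 and Igf2, the receptors Igf1r and Igf2r, and the binding proteins Igfbp2, Igfbp3, Igfbp4, Igfbp5, Igfbp6 and Igfbp7. The family was picked because Igfbp6 was already known to show a large rise in this comparison, so its change is given as a description and not as a tested finding.

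Hippocampal RNA was sequenced from 3 WT (Ube3a m+/p+) male mice and 3 Ube3a m-/p+ male mice, all on a C57BL/6 background and 6 to 8 weeks old, and each mouse gave 1 library. The Ube3a m-/p+ animals are called mutant mice. The Ube3a m-/p+ mouse models Angelman syndrome: it lacks a working maternal copy of the ubiquitin ligase gene Ube3a and keeps the paternal copy, which most neurons silence, so cells that do not imprint the gene still use it. The comparison asks which transcripts change in the hippocampus when the maternal copy is lost. Levels are CPM, read counts scaled to the same total of reads on genes in each library, and fold changes, with their standard error (SE), are those of mutant mice over WT mice from edgeR's quasi-likelihood test.

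IGF1 and IGF2 are small secreted proteins related to insulin that promote growth and survival of cells. Both activate the receptor tyrosine kinase encoded by Igf1r, whereas the receptor encoded by Igf2r takes up IGF2 and delivers it to lysosomes for breakdown. Binding proteins hold most of the IGF outside cells, which prolongs its life and limits its access to the receptor, and proteases release it. In the adult brain, Igf2 is made mainly by the choroid plexus and the meninges, and Igf1 by scattered neurons and by microglia.

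The libraries held 7293272 to 11314409 counts on genes. Ube3a, the targeted gene, had 104, 141 and 151 CPM in WT mice 1, 2 and 3 and 96.8, 82.9 and 80.6 CPM in mutant mice 1, 2 and 3. Every mutant mouse thus lay below every WT mouse, an order that 14.2% of all tested genes showed. The GC content of its transcript is low, at 36.9%, and the mice numbered 1 were the closest in Ube3a. Markers of hippocampal principal neurons were present at a summed 7342 to 8375 CPM in WT mice and 7959 to 8805 CPM in mutant mice. The libraries stood apart in a list of 11 choroid plexus markers, led by the thyroxine carrier gene Ttr. These summed to 638, 109 and 2284 CPM in WT mice 1, 2 and 3 and to 2366, 1687 and 114 CPM in mutant mice 1, 2 and 3, and each marker was detected in every library. WT mouse 2 and mutant mouse 3 were thus low in choroid plexus RNA, while WT mouse 3 and mutant mice 1 and 2 were high. They also differed by GC content: Spearman's rho of a gene's GC content with its departure from the 6-library mean, taken across genes that are no independent replicates, was 0.0455, -0.506 and -0.571 for WT mice 1, 2 and 3, against 0.0588, 0.526 and 0.528 for mutant mice 1, 2 and 3. It was thus negative in WT mice 2 and 3, positive in mutant mice 2 and 3 and near 0 in the mice numbered 1, so in 4 of the 6 libraries GC content and genotype go together.

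The study follows retinoic acid signalling, so the sequences upstream of 4 members were searched for AGGTCA, a half-site that retinoic acid receptors and other nuclear receptors bind. They are shown because Igfbp6 and Igf1 were the members whose levels did not overlap between the genotypes, and because Igf2 and Igfbp2 moved together over the mice. Each sequence covers the 250 bases before a RefSeq transcript start (GRCm38.p6), 5′ to 3′ on the strand of the gene. For Igf2, with 4 starts in RefSeq, and Igfbp2, with 2, the start nearest to the 5′ end of the GENCODE M21 gene was taken. Capitals mark AGGTCA or its reverse complement TGACCT, and the GC box GGGCGG or its reverse complement CCGCCC.
Igfbp6 (chr15:102143936-102144185, plus strand): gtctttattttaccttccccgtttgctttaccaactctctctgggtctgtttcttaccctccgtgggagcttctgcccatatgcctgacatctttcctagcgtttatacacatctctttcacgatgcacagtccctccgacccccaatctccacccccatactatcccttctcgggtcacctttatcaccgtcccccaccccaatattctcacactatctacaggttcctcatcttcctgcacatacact
Igfbp2 (chr1:72824230-72824479, plus strand): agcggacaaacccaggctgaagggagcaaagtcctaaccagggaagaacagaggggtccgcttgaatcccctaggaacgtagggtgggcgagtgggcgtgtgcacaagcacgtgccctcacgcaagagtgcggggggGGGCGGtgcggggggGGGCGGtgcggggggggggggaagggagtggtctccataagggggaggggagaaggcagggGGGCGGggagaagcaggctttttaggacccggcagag
Igf2 (chr7:142666817-142667066, minus strand): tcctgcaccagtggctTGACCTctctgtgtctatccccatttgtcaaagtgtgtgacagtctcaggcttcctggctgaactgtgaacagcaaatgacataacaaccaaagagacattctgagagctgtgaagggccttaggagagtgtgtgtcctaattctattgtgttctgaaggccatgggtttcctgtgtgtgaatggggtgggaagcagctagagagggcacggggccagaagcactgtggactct
Igf1 (chr10:87860861-87861110, plus strand): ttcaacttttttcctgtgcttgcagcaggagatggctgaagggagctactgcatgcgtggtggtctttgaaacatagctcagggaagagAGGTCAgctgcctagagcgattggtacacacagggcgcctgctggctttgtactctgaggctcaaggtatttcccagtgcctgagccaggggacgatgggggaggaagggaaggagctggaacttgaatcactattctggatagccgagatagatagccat
Igf2 and Igf1 each held 1 match to AGGTCA, and Igfbp6 and Igfbp2 held 0. Of the 32851 upstream sequences in RefSeq, 14.0% held this hexamer on either strand. The GC box was matched 3 times in Igfbp2 and 0 times in the others shown, against 32.7% of all upstream sequences with at least 1 match. Over the 10 members, Igf1r and Igf2r also held 1 AGGTCA match each. These are exact matches of letters in a fixed window, and variants of the half-site were not searched, so 0 matches does not mean that no half-site is present. The RefSeq start of Igfbp6 lies 176 bases from that of GENCODE M21, and that of Igf1 2846 bases. GC content was 49.6% in the window of Igfbp6 and 67.2% in that of Igfbp2, with a median of 52.4% over all windows.

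Of the 14445 genes tested, 290 (2.01%) were called, meaning that they changed by more than 1.2-fold with a p under 0.05 once adjusted by the Benjamini-Hochberg procedure (edgeR). All 10 members passed the filter on low counts. Of these, 1 was called, Igfbp6, which was higher in mutant mice, in a direction in which 1.02% of all tested genes were called. This count restates the value that led to the choice of the family. Leaving out WT mouse 2, WT mouse 3 or mutant mouse 2 left 0 genes called by edgeR, with 2075, 2159 and 2128 at an unadjusted p below 0.05, leaving out mutant mouse 3 left 2, and leaving out WT mouse 1 or mutant mouse 1 gave 2582 and 1816. The levels of the genotypes did not overlap in Igfbp6 and Igf1, that is 2 of 10 members against 25.0% of all tested genes. The median log2 fold change was 0.04 over the members and -0.01 without Igfbp6, beside 0.002 over all tested genes. In whole tissue, fewer cells of a type and less RNA per cell cannot be told apart.

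**Figure D1:**
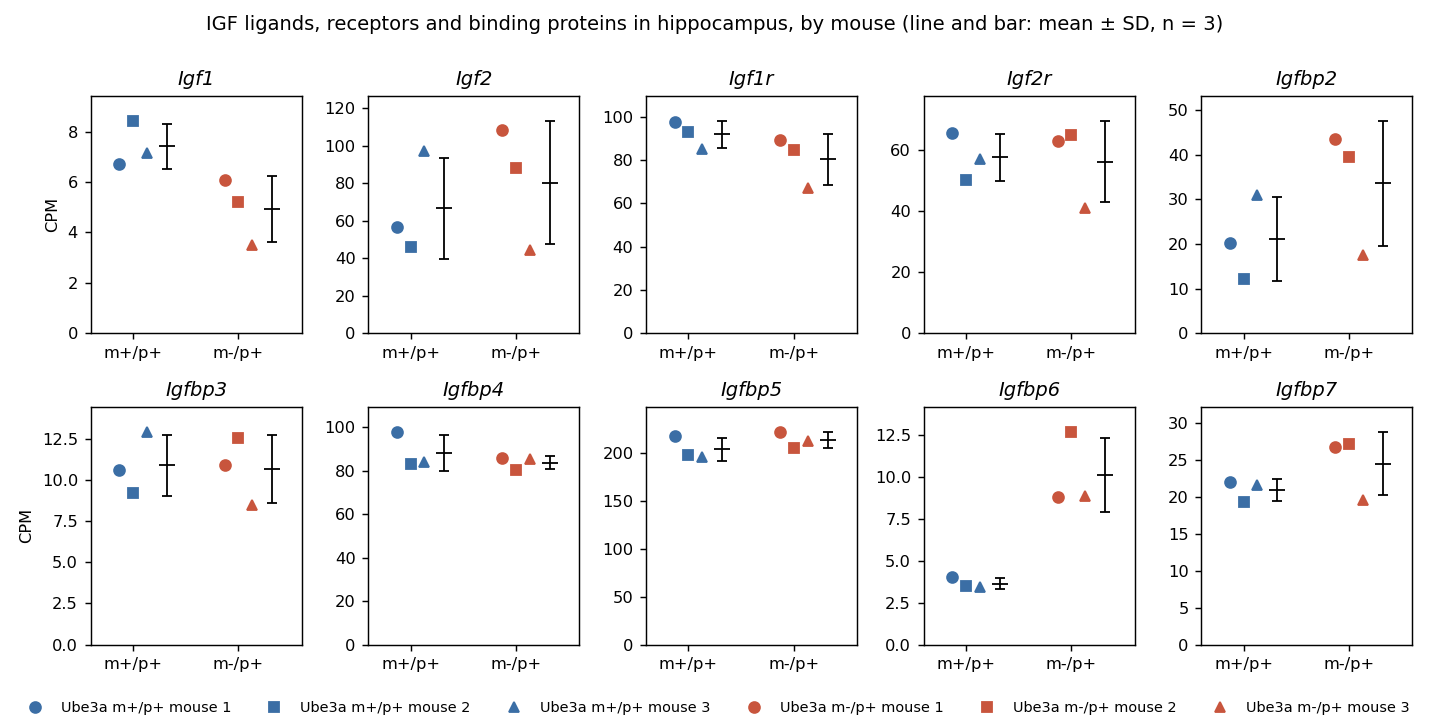
Levels of the 10 members in CPM (vertical axes, each from 0) in the 6 mice, with WT mice in blue, mutant mice in red, a symbol for each mouse number, and black lines and bars for the mean ± SD of 3 mice. Igfbp6 lies between 3.43 and 4.005 CPM in WT mice and between 8.79 and 12.6 CPM in mutant mice, and Igf1 is the only other member without overlap.

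Among the ligands, Igf1 was the scarcest member per length. It lies on chromosome 10 of mm10 (GRCm38), from 87858265 to 87937042 (plus strand, GENCODE M21). It had 6.71, 8.42 and 7.13 CPM in WT mice 1, 2 and 3 and 6.09, 5.21 and 3.52 CPM in mutant mice 1, 2 and 3, on 332 counts in all. Each mutant mouse lay below each WT mouse, a pattern that 14.2% of all tested genes showed in this direction. Mean levels were 7.42 ± 0.887 and 4.94 ± 1.31 CPM (mean ± SD, n = 3 each). On the log2 scale this was a change of -0.58 (SE 0.23, adjusted p = 0.138, edgeR), and a two-sided exact permutation test on log2 CPM returned p = 0.1, the smallest that 3 mice against 3 allow. Igf1 did not pass the threshold. Its transcript has the lowest GC content of the members, 38.0%, and once each library was corrected for the GC content and length of transcripts its log2 fold change was -0.24 (adjusted p = 0.655, edgeR). It was -0.28 (adjusted p = 0.774, edgeR) without WT mouse 2 and mutant mouse 3, the highest and the lowest in Igf1.

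Summed markers of microglia and of GABAergic interneurons, which can make Igf1, were lower in each mutant mouse than in each WT mouse. So were those of astrocytes, endothelial cells and mural cells, 5 of the 8 marker lists. Sums follow the most abundant genes, such as Slc1a2 for astrocytes, Rgs5 for mural cells and Gad1 for interneurons, each lower in every mutant mouse. Taken singly, 2 of 8 microglial and 3 of 8 interneuron markers had this order. It held for 3 of 8 astrocyte, 3 of 8 endothelial and 1 of 8 mural markers, against 14.2% of all tested genes. In 1 interneuron and 1 mural marker the order was reversed, as in 10.8% of all tested genes. The 8 microglial markers summed to 419 to 456 CPM in WT mice and 386 to 405 CPM in mutant mice, with 5 of 8 lower and 0 called, and the 8 markers of GABAergic interneurons to 698 to 724 CPM and 623 to 663 CPM, with 4 of 8 lower and 0 called. Every marker of both lists was detected in each library. The median log2 fold changes were -0.12 and -0.09. The 8 astrocyte markers summed to 5293 to 5720 CPM in WT mice and 4745 to 4962 CPM in mutant mice, with 4 of 8 lower, 0 called and a median log2 fold change of -0.05. Their part in the level of Igf1 was not tested.

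Igf2, the other ligand, was far more abundant and varied from mouse to mouse. It lies on chromosome 7, from 142650766 to 142666816 (minus strand). It had 56.8, 45.9 and 97.1 CPM in WT mice 1, 2 and 3 and 109, 88.2 and 44.2 CPM in mutant mice 1, 2 and 3. The genotypes overlapped over most of their range, with the lowest and the highest value both in mutant mice. The log2 fold change was 0.29 (SE 0.47, adjusted p = 0.758, edgeR), smaller than its error, and with 1 mouse left out it lay between 0.03 and 0.65. Exons of Igf2 share 3596 bp with those of Gm49394 on the same strand, which was not analysed here, and 98 bp with Igf2os on the opposite strand, which had 32 counts in the 6 libraries.

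Igfbp2, whose protein is plentiful in cerebrospinal fluid, followed the same course over the mice as Igf2. It lies on chromosome 1, from 72824503 to 72852474 (plus strand). Its levels were 20.3, 12.1 and 30.9 CPM in WT mice 1, 2 and 3 and 43.5, 39.5 and 17.6 CPM in mutant mice 1, 2 and 3. WT mouse 3 and mutant mice 1 and 2 were high in both genes, and WT mice 1 and 2 and mutant mouse 3 were low in both. Igf2 had 2.80, 3.79 and 3.15 counts for each count of Igfbp2 in WT mice 1, 2 and 3 and 2.49, 2.23 and 2.51 in mutant mice 1, 2 and 3. This ratio stayed within a narrower range than either gene. It was lower in each mutant mouse than in each WT mouse, a difference that was not tested. The log2 fold change of Igfbp2 was 0.70 (SE 0.51, adjusted p = 0.469, edgeR). It lay between 0.41 (without WT mouse 2) and 1.06 (without WT mouse 3) with 1 mouse left out, and it was 0.35 (adjusted p = 0.859, edgeR) after the correction for GC content and length, where the GC content of the transcript is 62.1%.

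The order of the mice in Igf2 was nearly that of the choroid plexus markers. From the highest, the markers ran mutant mouse 1, WT mouse 3, mutant mouse 2, WT mouse 1, mutant mouse 3 and WT mouse 2, and Igf2 differed only in that the last 2 changed places. In Igfbp2 the order differed only in that mutant mouse 2 preceded WT mouse 3. All 11 choroid plexus markers had a higher mean in mutant mice, with 0 of 11 called (edgeR), 0 at an unadjusted p below 0.05, overlap in every one and a median log2 fold change of 0.43. Leaving out 1 mouse moved that median between -0.13 and 1.72.

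Libraries of like choroid plexus level can be set side by side. WT mouse 3 and mutant mouse 1, with 2284 and 2366 CPM of markers, had 97.1 and 109 CPM of Igf2 and 30.9 and 43.5 CPM of Igfbp2. WT mouse 2 and mutant mouse 3, with 109 and 114 CPM of markers, had 45.9 and 44.2 CPM of Igf2 and 12.1 and 17.6 CPM of Igfbp2. In Igfbp6 the same pairs had 3.43 and 8.79 CPM, and 3.46 and 8.84 CPM. Its levels did not overlap between the genotypes, so any pair of 1 WT and 1 mutant mouse would show this order. Each pair holds 1 mouse per genotype, and the part of choroid plexus RNA in the levels of these genes was not tested. With WT mouse 2 and mutant mouse 3 left out of the fit, a choice made after the data were seen that left 2 mice per genotype, the log2 fold changes were 0.38 for Igf2 (adjusted p = 0.649), 0.72 for Igfbp2 (adjusted p = 0.523) and 1.55 for Igfbp6 (adjusted p = 0.149, edgeR). In that fit 0 members were called and 2 had an unadjusted p below 0.05. Of all 14468 genes in it, 1 was called and 1202 had an unadjusted p below 0.05 (edgeR).

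**Figure D2:**
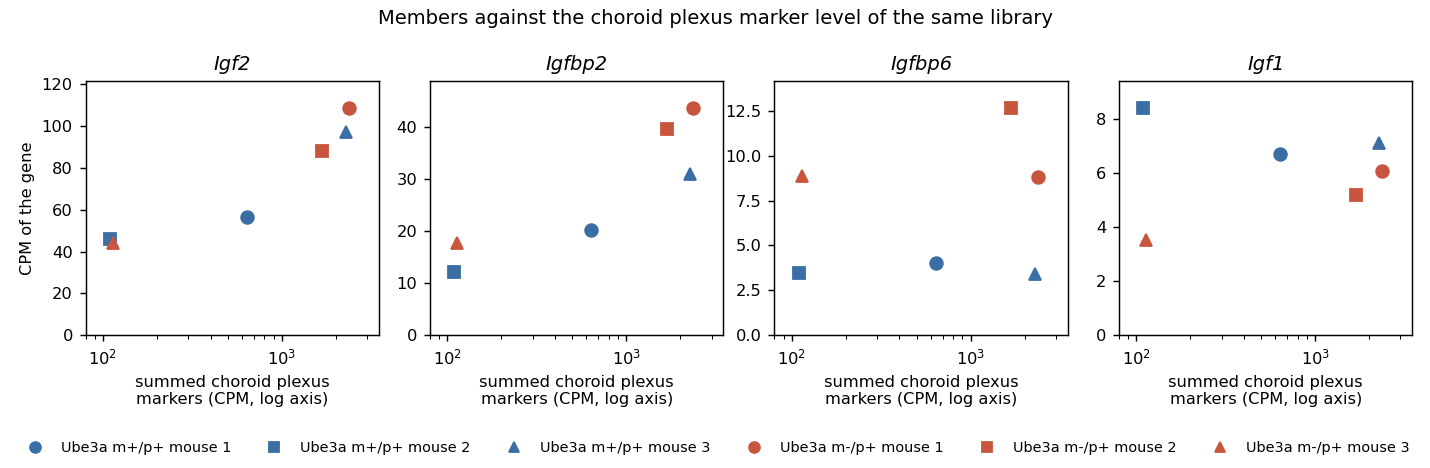
Levels of Igf2, Igfbp2, Igfbp6 and Igf1 in CPM (vertical axes, from 0) against the summed CPM of 11 choroid plexus markers in the same library (horizontal axis, log scale), with 1 point per mouse. Igf2 and Igfbp2 are highest in the 3 libraries with 1687 to 2366 CPM of markers in either genotype, and Igfbp6 is 3.43 to 4.005 CPM in the WT and 8.79 to 12.6 CPM in the mutant mice.

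Igfbp6 encodes a binding protein that prefers IGF2 to IGF1, and it is made by fibroblasts and meningeal cells among others. It lies on chromosome 15 of mm10 (GRCm38), from 102144362 to 102149511 on the plus strand (GENCODE M21), and shares no exon with another annotated gene. WT mice 1, 2 and 3 gave 34, 30 and 25 counts, and mutant mice 1, 2 and 3 gave 78, 143 and 93 counts. As CPM, the mice of these genotypes had 4.005, 3.46 and 3.43, and 8.79, 12.6 and 8.84. The lowest mutant mouse was above the highest WT mouse by more than the whole range of the WT mice. The means were 3.63 ± 0.325 and 10.1 ± 2.21 CPM (mean ± SD, n = 3 each), a 2.81-fold rise or a log2 fold change of 1.49 (SE 0.22). Among all tested genes, 9 had a larger log2 fold change, 2 of them called. The log2 fold change was 1.46, 1.45 and 1.30 without WT mouse 2, WT mouse 3 and mutant mouse 2, where Igfbp6 was not called (adjusted p = 0.232, 0.104 and 0.204, edgeR).

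The transcript of Igfbp6 is rich in GC, at 60.7%, and its log2 fold change was 1.15 (SE 0.21) after correction for GC content and length. For each count of Igfbp5, a member with 50.3% GC, there were 0.0184, 0.0175 and 0.0175 counts of Igfbp6 for WT mice 1, 2 and 3, against 0.0397, 0.0617 and 0.0416 for mutant mice 1, 2 and 3. Igfbp5 varied little over the mice, so this ratio restates the rise of Igfbp6 and does not control for GC content. The part of GC content in that rise was not tested beyond the correction for GC content and length.

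Markers of meninges and fibroblasts were most abundant in the mouse with the most Igfbp6. The 12 markers summed to 80.1, 68.1 and 76.7 CPM in WT mice 1, 2 and 3 and to 90.97, 120.1 and 73.7 CPM in mutant mice 1, 2 and 3. Mutant mouse 2 was the highest in both, but mutant mouse 3 lay within the WT range of the markers while its Igfbp6 was 8.84 CPM. Of the 12, 10 had a fitted log2 fold change above 0, 1 was called and 0 were missing from a library, with a median log2 fold change of 0.32. That median was 0.11 without mutant mouse 2, lay between 0.11 and 0.43 with 1 mouse left out, and was 0.19 after the correction for GC content and length. The called marker was the collagen gene Col1a1 (log2 fold change 0.73, adjusted p = 0.0416, edgeR), which had 12.1, 8.53 and 9.74 CPM in WT mice and 15.3, 19.3 and 15.1 CPM in mutant mice, without overlap. Its transcript has 58.9% GC. In 3 of the 12 markers each mutant mouse lay above each WT mouse, against 10.8% of all tested genes, and in 0 the order was reversed. An unadjusted p below 0.05 was seen in 4 of the 12, against 24.6% of all tested genes (edgeR). The part of meningeal cells and fibroblasts in the rise of Igfbp6 was not tested.

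Genes beside Igfbp6 did not share its size of change. Of the 5 listed genes within 50 kb, Soat2, which lies 1015 bp away, had 2 counts in all. Spryd3 at 8128 bp had a log2 fold change of 0.32 (adjusted p = 0.114), Csad at 27488 bp 0.20 (adjusted p = 0.219), Tns2 at 27961 bp -0.17 (adjusted p = 0.42) and Eif4b at 47189 bp 0.11 (adjusted p = 0.381, edgeR), and none was called. Csad and Eif4b were higher in each mutant mouse than in each WT mouse, as were 10.8% of all tested genes, while Spryd3 and Tns2 overlapped.

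The genes most like Igfbp6 over the 6 libraries, by Pearson's r of log2 CPM among all tested genes, were Dlk2 (0.997), Tmcc2 (0.994), Asxl1 (0.990), Clcn6 (0.986) and Znhit1 (0.986). They were selected for this likeness, which the difference between the genotypes largely sets, so the values are a description. Their own changes were far smaller, with log2 fold changes of 0.46, 0.36, 0.08, 0.19 and 0.47. Of these, Dlk2, Tmcc2 and Znhit1 were called (adjusted p = 0.0446, 0.0393 and 0.0451, edgeR).

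No other binding protein passed the threshold. Igfbp5, a binding protein that attaches to the extracellular matrix, was the most abundant member. It had 217, 198 and 195 CPM in WT mice 1, 2 and 3 and 221, 205 and 212 CPM in mutant mice 1, 2 and 3 (log2 fold change 0.08, SE 0.08, adjusted p = 0.571, edgeR). It lies 5458 bp from Igfbp2 on chromosome 1, on the opposite strand, yet did not share the wide spread of Igfbp2. Igfbp4, whose protein restrains IGF until it is cleaved, had 97.7, 83.0 and 83.8 CPM in WT mice and 85.8, 80.1 and 85.3 CPM in mutant mice (log2 fold change -0.06, SE 0.09, adjusted p = 0.742, edgeR). In both genes the genotypes overlapped and the 6 mice lay close together.

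Igfbp3, the main carrier of IGF in blood, had 10.6, 9.22 and 12.9 CPM in WT mice and 10.9, 12.6 and 8.46 CPM in mutant mice. Its log2 fold change was -0.01 (SE 0.19, adjusted p = 0.980, edgeR), and its sign turned with the scaling. Igfbp7, which binds IGF weakly and is made by vascular cells, had 22.03, 19.3 and 21.5 CPM in WT mice and 26.7, 27.1 and 19.6 CPM in mutant mice. Mutant mice 1 and 2 were above each WT mouse and mouse 3 was within their range (log2 fold change 0.24, SE 0.14, adjusted p = 0.292, edgeR). Without mutant mouse 3 its log2 fold change was 0.38. After the correction for GC content and length its log2 fold change was -0.05 (adjusted p = 0.912, edgeR), so its direction turned. The 8 endothelial markers summed to 291 to 297 CPM in WT mice and 248 to 275 CPM in mutant mice. Of these, 5 were lower, 3 were higher and 0 were called, with a median log2 fold change of -0.19. The 8 mural cell markers summed to 256 to 275 CPM and 220 to 236 CPM, with 5 lower, 3 higher and a median of -0.07. Only 1 mural marker was called, the pericyte gene Rgs5, which fell (log2 fold change -0.51, adjusted p = 0.0387, edgeR). The mural marker Kcnj8 was higher in each mutant mouse than in each WT mouse (log2 fold change 0.58, adjusted p = 0.216, edgeR). Each of these markers was detected in every library. Igfbp7 overlaps Polr2b on the opposite strand over 85 bp.

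Neither receptor gene passed the threshold. Igf1r had 97.4, 92.9 and 85.3 CPM in WT mice 1, 2 and 3 and 89.2, 84.7 and 67.0 CPM in mutant mice 1, 2 and 3 (log2 fold change -0.18, SE 0.11, adjusted p = 0.309, edgeR). Without mutant mouse 3 its log2 fold change was -0.07, and without WT mouse 2 and mutant mouse 3 it was -0.06. Igf2r had 65.4, 50.1 and 56.9 CPM and 62.7, 64.7 and 40.8 CPM (log2 fold change -0.02, SE 0.16, adjusted p = 0.950, edgeR). In both genes mutant mouse 3 was the lowest of the 6 mice and the others overlapped.

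**Figure D3:**
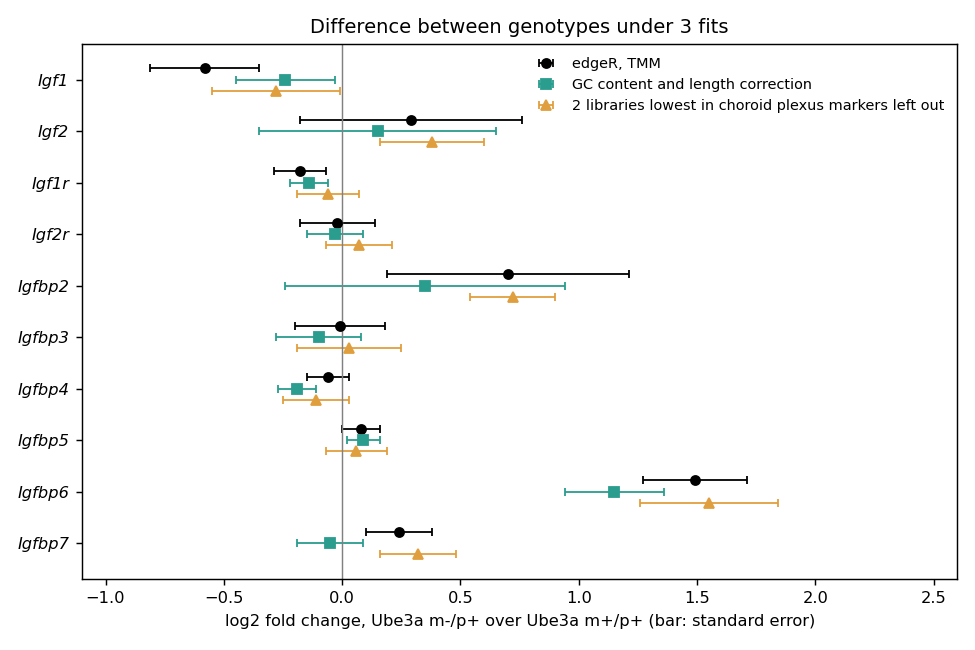
Log2 fold change of mutant over WT mice (horizontal axis) for the 10 members, with bars of 1 standard error, in the edgeR fit (black circles), with GC content and length corrected (green squares) and without the 2 libraries lowest in choroid plexus markers (orange triangles). Igfbp6 stands at 1.49, 1.15 and 1.55, and Igf1 moves from -0.58 to -0.24 and -0.28.

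To compare levels between genes, CPM were divided by the kilobases of merged exons in GENCODE M21. On this scale of CPM per kb, the order of mean levels in WT mice was Igfbp5 (33.9 ± 2.01, SD, n = 3), Igfbp4 (20.0 ± 1.87), Igfbp7 (17.3 ± 1.22), Igf2 (11.6 ± 4.71), Igfbp2 (11.4 ± 5.09), Igf2r (6.17 ± 0.820), Igf1r (5.47 ± 0.365), Igfbp3 (3.48 ± 0.592), Igfbp6 (3.26 ± 0.292) and Igf1 (0.749 ± 0.0895). Neighbours in this order overlapped in their ranges over the 3 mice, except Igfbp5 above Igfbp4, Igfbp4 above Igfbp7, Igf1r above Igfbp3 and Igfbp6 above Igf1. In mutant mice, Igfbp6 stood at 9.07 ± 1.98 CPM per kb (SD, n = 3), in rank 6, above the range of Igf2r (6.02 ± 1.43) and overlapping that of Igf2 (14.0 ± 5.75).

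The make-up of the 6 binding proteins was taken as shares of their summed CPM per kb. WT mice 1, 2 and 3 devoted 3.81%, 3.87% and 3.31% to Igfbp6, and mutant mice 1, 2 and 3 devoted 6.98%, 10.2% and 8.73%. Igfbp5 held the largest share in each library, 38.1% ± 3.07 (SD, n = 3) in WT mice and 34.0% ± 4.31 (SD, n = 3) in mutant mice. The share of Igfbp2 ran from 8.16% in WT mouse 2 to 20.8% in mutant mouse 1, and since shares sum to a whole, a rise in 1 member lowers the others.

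**Figure D4:**
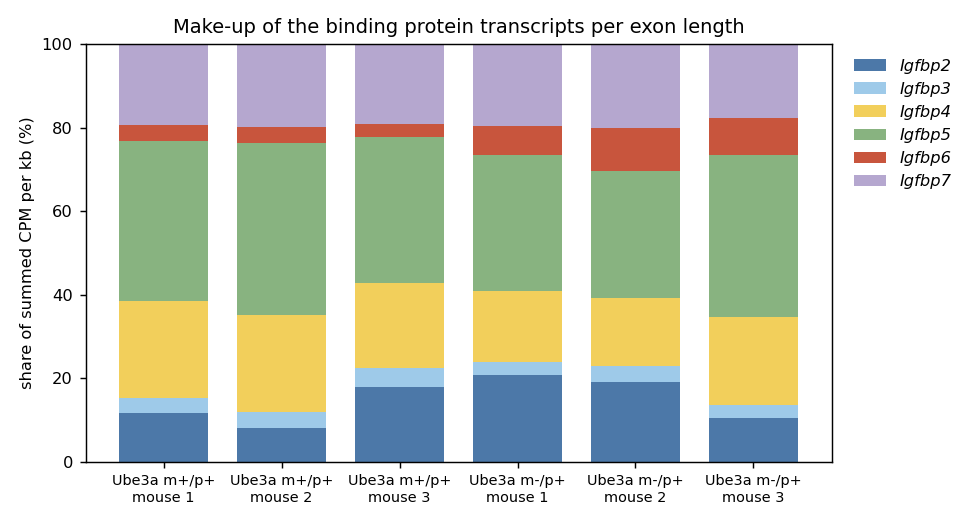
Share of each binding protein gene in the summed CPM per kb of Igfbp2 to Igfbp7 (vertical axis, %), with 1 stacked bar per mouse. The red part, Igfbp6, covers 3.31% to 3.87% in WT mice and 6.98% to 10.2% in mutant mice, and the blue part, Igfbp2, is widest in WT mouse 3 and mutant mice 1 and 2.

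Beyond the 10 members, 44 other genes of the pathway were listed by role, and 35 passed the filter on low counts. None of the 35 was called by edgeR, which called 2.01% of all tested genes. DESeq2 called 1 (Sos1), and 951 of all 14445 genes. In edgeR 10 of the 35 had an unadjusted p below 0.05 (24.6% of all tested genes did). Of the 35, 24 had a lower and 11 a higher fitted level in mutant mice, with a median log2 fold change of -0.12.

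Ligands and receptors related to insulin were represented by Insr, the insulin receptor gene, with 69.7 ± 1.21 CPM in WT and 60.6 ± 7.93 CPM in mutant mice (mean ± SD, n = 3 each, log2 fold change -0.19, adjusted p = 0.273, edgeR). The insulin genes were near absent, with 0 counts of Ins1 and 7 of Ins2 in the 6 libraries. Of the 5 tested genes that act on binding proteins as proteases or their inhibitors, 4 were lower and 0 were called. The most abundant was the protease gene Htra1, with 144 ± 6.01 and 139 ± 5.26 CPM (mean ± SD, n = 3 each) with -0.04 as log2 fold change (adjusted p = 0.817, edgeR). Igfbpl1, a relative of the binding proteins, had 7.47 ± 0.462 and 7.45 ± 2.16 CPM (mean ± SD, n = 3 each), and Igfbp1 had 10 counts in all. Igf2bp3, 1 of 3 genes for proteins that bind Igf2 mRNA and the only one tested, stood at a log2 fold change of -0.35 with an adjusted p of 0.449 (edgeR).

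Among the 8 tested substrates and adaptors of the receptors, 1 was higher, 7 were lower and 0 were called. The most abundant was the adaptor gene Grb2 (139 ± 12.5 and 159 ± 10.2 CPM, SD, n = 3, log2 fold change 0.21, adjusted p = 0.175, edgeR). The 18 genes of the PI3K, AKT, mTOR and FOXO list, which carry the signal from the receptors to growth and metabolism, were all tested, with 8 higher, 10 lower and 0 called. The smallest adjusted p of all the pathway genes was 0.0722, for Sos1, an activator of Ras (log2 fold change -0.36, edgeR). The transcript of Sos1 is low in GC, at 41.0%. After the correction for GC content and length 0 pathway genes were called, as before it, with 4 at an unadjusted p below 0.05 (edgeR). Of all 14201 genes in the corrected fit, 92 were called and 2018 had an unadjusted p below 0.05, against 3560 of 14445 without it (edgeR).

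**Figure D5:**
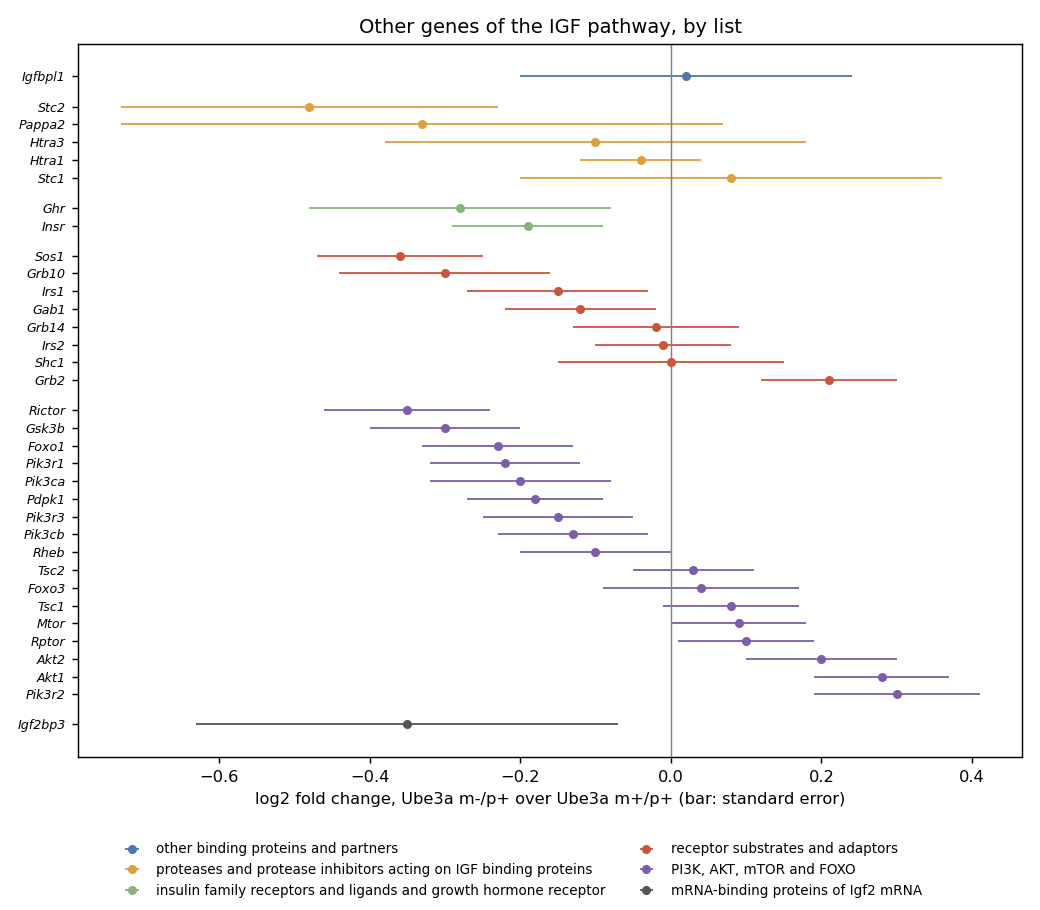
Log2 fold change of mutant over WT mice (horizontal axis) of 34 of the 35 tested pathway genes, with bars of 1 standard error, grouped and coloured by role. Values run from -0.48 (Stc2) to 0.30 (Pik3r2), and every gene drawn lies within that range.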

How the data were processed

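Hippocampal RNA was sequenced from 3 WT and 3 mutant mice. The authors deposited raw counts per gene symbol for each library, without normalization or pooling. The submitters' processing notes name STAR 2.7.4a, HTSeq and mm10, and the strand setting is not given in the sources used here. Reads on no gene made up 54.07% to 55.05% of all the reads listed, ambiguous reads 0.297% to 0.383% and reads with more than 1 alignment 3.71% to 5.77%, and all were left out.

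Counts were analysed in R 4.3.3 with edgeR 4.0.16: filterByExpr, TMM (factors 0.986 to 1.01), quasi-likelihood F test with robust dispersion, genotype as the only factor, two-sided, Benjamini-Hochberg adjustment over 14445 genes. The biological coefficient of variation was 0.102. CPM are relative to all counts on genes of a library. Alternatives were DESeq2 1.42.0, other scalings and filters, the replicate number as a block, leaving out mice, other thresholds, and a correction of each library by natural splines (5 degrees of freedom) on the length and GC content of each gene's longest transcript (GENCODE M21), for the 14201 tested genes with one. The edgeR fit, the replicate block, DESeq2 and the correction were also run on simulated counts, with the outcome not given here. Those counts held no differences between mice in choroid plexus RNA, so they cannot show how such differences affect the calls.

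The members and lists were chosen with earlier results of these data known. Pathway genes were named when called or when the most abundant of a list, together with Ube3a, the 5 genes most like Igfbp6 and the genes within 50 kb of it. Col1a1, Rgs5, Slc1a2, Gad1, Sos1, Stc2, Pik3r2, Ins1, Ins2 and Igfbp1 were named after their values were seen. 1 pathway gene that this rule names is not reported here. Nothing in the sources says how the mice were related, so p-values measure the spread between these libraries.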

Additional observations from a re-analysis of the deposited data

How the results depend on the processing

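With 3 mice per genotype, the number of calls changed widely with the mouse left out. Leaving out 1 mouse gave 0 to 2582 called genes, against 290: 2582 without WT mouse 1, 1816 without mutant mouse 1, 2 without mutant mouse 3, and 0 without WT mouse 2, WT mouse 3 or mutant mouse 2 (2075, 2159 and 2128 at an unadjusted p below 0.05, edgeR). The called members then ran from 0 to 1, with 0 in those 3 fits, where the log2 fold change of Igfbp6 was 1.46, 1.45 and 1.30 (adjusted p = 0.232, 0.104 and 0.204, edgeR). The called pathway genes ran from 0 to 7, with 7 without WT mouse 1 and 4 without mutant mouse 1. Igfbp6 stayed between 1.14 and 1.59 in the 15 alternatives with an adjusted p, the cause of the lost calls was not tested, and DESeq2 gave it 1.49 with no adjusted p, so its called members were not counted.

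DESeq2 called 951 genes and 1 pathway gene, Sos1. No filter on low counts gave 1176 genes and 4 pathway genes, and an unadjusted p with the same fold change 2832 genes, 2 members (Igfbp6 and Igf1) and 6 pathway genes. The correction for GC content and length gave 92 genes. With WT mouse 2 and mutant mouse 3 left out, a setting chosen after seeing the data, 1 gene and 0 members were called. A block for the replicate number left 0 genes and 0 members called (2422 genes and 2 members at an unadjusted p below 0.05, edgeR, and Igfbp6 at 1.48, adjusted p = 0.216), and with the block and the correction together 13 genes, Igfbp6 among them. The labels give no pairing beyond the number, and the deviations of same-numbered mice had correlations across genes of -0.285, -0.177 and -0.311. Other scalings, and a minimum of 10 counts in every library, gave 272 to 399 genes.

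Signs turned in 4 members, none of them called. Igf2r was at 0.07 with the 2 libraries lowest in choroid plexus markers left out and between -0.13 and 0.16 with 1 mouse left out. Igfbp3 was at 0.00 with upper-quartile factors and with no filter, 0.03 without those 2 libraries, and between -0.14 and 0.13 with 1 mouse left out. Igfbp4 lay between -0.10 and 0.03 with 1 mouse left out, and Igfbp7 was at -0.05 with the correction and -0.06 with the block added. Depth limits Igf1 and Igfbp6 most, at 332 and 403 counts in the 6 libraries.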
